A study of Ogataea angusta with 8 samples.

Results

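The 4 arrays described here compared Hansenula polymorpha cells grown on xylose with cells grown on glucose under microaerobic conditions, that is, in poorly aerated culture. They are the arrays whose titles place them in the microaerobic condition, 4 of the 8 in the series, and the other 4 made the same comparison in aerobic culture. All cells were of strain DL-1-L, grown at 37 °C from a starting optical density of 0.3. Microaerobic cultures had 100 ml of medium in 250 ml flasks shaken at 100 rpm, and aerobic cultures had 50 ml in 500 ml flasks shaken at 180 rpm, so filling, flask and shaking changed together with the oxygen supply. No source used here gives the sugar concentrations, the time of harvest or the oxygen in the medium. Each array carried xylose RNA and glucose RNA of 1 oxygen condition, labelled with the dyes Cy5 and Cy3. The xylose RNA was in Cy5 on the arrays named cy5-1 and cy5-2, and in Cy3 on those named cy3-1 and cy3-2. No label says that arrays came from separate cultures, so the p-values measure the spread between arrays, which may be technical.

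Hansenula polymorpha is a heat-tolerant yeast that can live on methanol and is one of the few yeasts able to ferment xylose, the main pentose of plant biomass. Yeasts of this kind reduce xylose to xylitol, oxidise xylitol to xylulose and phosphorylate it, and the product enters the pentose phosphate pathway. The reduction and the oxidation prefer different nicotinamide cofactors, and cells short of oxygen have fewer ways to restore the balance between them, which is why xylose and oxygen supply are studied together. Glucose, the preferred sugar, represses genes for the use of other carbon sources in many yeasts. The array identifiers were not paired with gene names in the tables used here: none of the 5837 matched an entry of the reference gene table. The response is therefore described by its size, its direction and its distribution over the features, and 4 features are given by identifier.

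Whether a feature's level differed between sugars was read from its log ratio, taken to be on the log2 scale with xylose as the numerator. Neither the base nor the numerator is stated, and with glucose as the numerator every rise below would be a fall. Of the 5837 features, 5437 had a value on all 4 microaerobic arrays, 207 on 3, 50 on 2 and 143 on none, and no feature had exactly 1. The 5644 features with at least 3 values were tested. Array cy5-2 lacked the most values, and it was the missing one for 159 of the 207 features with 3. The SD of the ratios across features was 0.38, 0.36, 0.41 and 0.43 on arrays cy5-1, cy5-2, cy3-1 and cy3-2. Ratios of 2-fold or more in favour of xylose numbered 96, 56, 129 and 127 on these arrays, and those in favour of glucose 59, 62, 46 and 57. Array cy5-2 thus had the fewest large positive ratios, and the arrays with the xylose RNA in Cy3 had the most.

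In microaerobic culture the response to xylose was broad and mostly shallow. Of the 5644 features, 1039 changed (18.4%), 527 upwards (9.34%) and 512 downwards (9.07%), each at an adjusted p under 0.05 with limma. The median log2 ratio was 0.50 among features that rose (quartiles 0.39 and 0.79) and -0.45 among those that fell (quartiles -0.60 and -0.35), and no called change was below 0.26 in log2 units. A change of 2-fold or more was called for 116 features (2.06%), 79 of which rose and 37 of which fell. At 4-fold or more, 8 features rose and 4 fell, so rises outnumbered falls by more among large changes than among all changes. Array cy5-2 alone had 56 ratios of 2-fold or more in favour of xylose and 62 in favour of glucose. The other microaerobic arrays each had more in favour of xylose. All but 7 of the 1021 called features with 4 values (99.3%) had 1 sign on all 4 arrays, against 39.4% of the 5437 tested features with 4 values, a gap that follows in part from the test. The count of 1039 was 659 without array cy3-1, 484 without array cy3-2 and 1971 with a term for the dye, while the counts at 2-fold or more ranged from 105 to 161 over 15 alternatives.

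**Figure D1:**
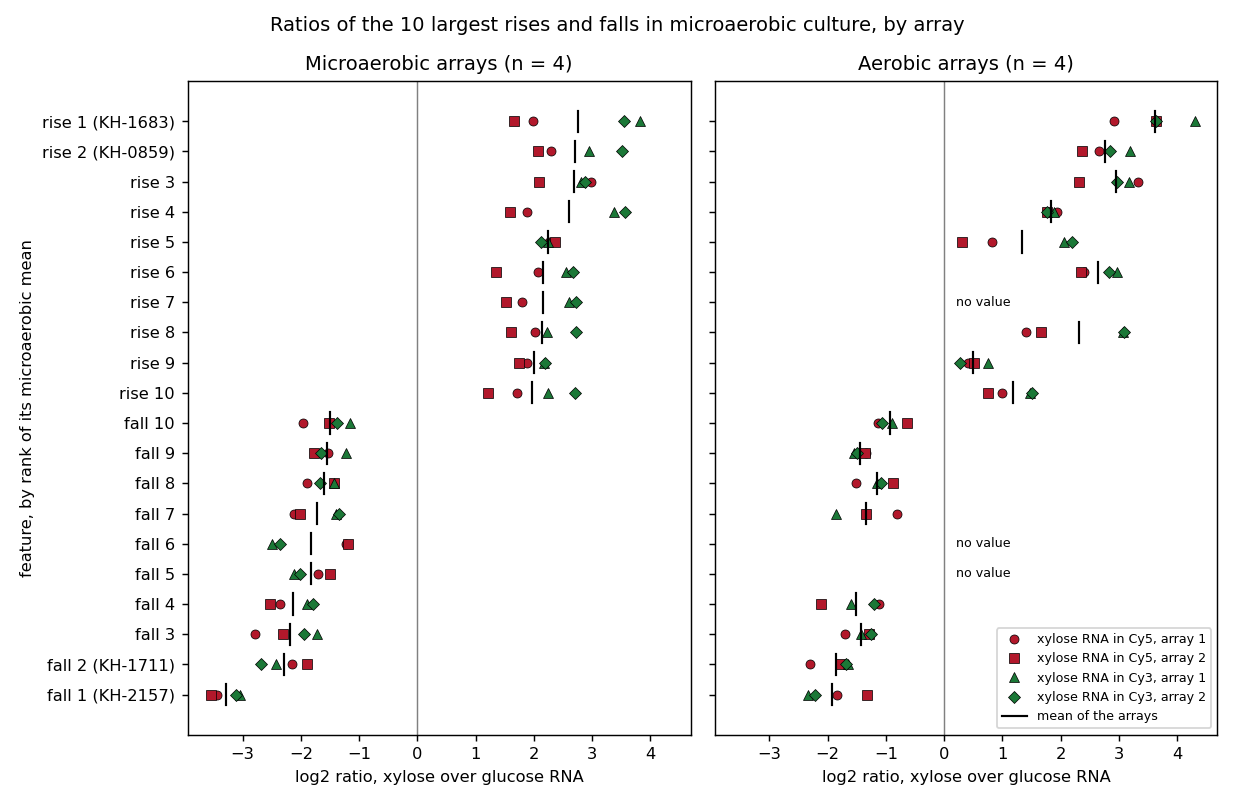
Log2 ratio of xylose over glucose RNA (horizontal axis) on each microaerobic array (left) and each aerobic array (right) for the 10 largest rises and the 10 largest falls in microaerobic culture, with a bar at the mean of the arrays. Red symbols are arrays with the xylose RNA in Cy5 and green ones those with it in Cy3, and the microaerobic values of most rises are higher in green; 1 rise and 2 falls have no aerobic value.

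KH-1683 had the largest rise, with log2 ratios of 1.99 and 1.66 on arrays cy5-1 and cy5-2 and of 3.83 and 3.55 on arrays cy3-1 and cy3-2. Every array showed a higher level on xylose, but the dye orientations did not overlap, as for 50.8% of tested features with 4 values. The mean was 2.76 ± 1.09 (SD, n = 4), a 6.76-fold higher level on xylose (limma adjusted p = 0.0012). KH-0859 had ratios of 2.30, 2.08, 2.95 and 3.51 on the 4 arrays in the same order. Its mean was 2.71 ± 0.65 (SD, n = 4), or 6.54-fold (limma adjusted p = 0.00015), again with higher ratios where the xylose RNA carried Cy3. The feature that came next in rank had a mean of 2.69 ± 0.40 (SD, n = 4), so the order of the leading rises was not resolved. It ranked first among features with 4 values after quantile normalization, and without array cy3-1 or cy3-2.

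KH-2157 had the largest change of any feature, with log2 ratios of -3.44 and -3.55 on arrays cy5-1 and cy5-2 and of -3.05 and -3.12 on arrays cy3-1 and cy3-2. All 4 arrays showed a lower level on xylose. The mean was -3.29 ± 0.24 (SD, n = 4), which puts the level 9.78-fold below that on glucose (limma adjusted p = 3.1e-06). KH-1711 had ratios of -2.16, -1.89, -2.43 and -2.69 in the same order, with a mean of -2.29 ± 0.34 (SD, n = 4) and thus a level 4.90-fold below that on glucose (limma adjusted p = 5.2e-05). The dye orientations of both features lay apart, KH-2157 with the deeper fall in Cy5 and KH-1711 with the deeper fall in Cy3. Among features with 4 values the orientations lay apart for 2761 of the 5437 tested (50.8%). The share was 89 of 115 (77.4%) among those called at 2-fold or more, so it is not particular to the named features. These 4 features were chosen for the size of their microaerobic ratios, so their sizes are a description. Each of the 4 kept its call and its direction under all 15 alternatives that left the signs as deposited. Named features had to be called with 1 sign on all 4 arrays. Their sign on every array follows from that choice, and the kept direction does so in large part.

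The rises ranked 3 to 10 had means of 1.97 to 2.69, or 3.92-fold to 6.44-fold, and the falls of these ranks had means of -2.20 to -1.50, or 2.83-fold to 4.58-fold lower on xylose. The rise of rank 5 varied least among these rises, with ratios of 2.26, 2.36, 2.25 and 2.12 on arrays cy5-1, cy5-2, cy3-1 and cy3-2, the Cy5 values lying narrowly above the Cy3 values. In aerobic culture the same feature split widely and the other way, at 0.82 and 0.30 in Cy5 and 2.06 and 2.19 in Cy3. The rise of rank 4 split in microaerobic culture instead. Its microaerobic ratios were 1.89 and 1.59 in Cy5 and 3.38 and 3.57 in Cy3, and its aerobic ratios were 1.93 and 1.77 in Cy5 and 1.88 and 1.77 in Cy3. The size of a feature's dye split in 1 oxygen condition thus did not always hold in the other. For neither did the difference between conditions pass (limma adjusted p of 0.44 for rank 4 and 0.30 for rank 5).

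Among the falls, ranks 3, 4, 7 and 10, like KH-2157, were deeper where the xylose RNA carried Cy5. Rank 3 had ratios of -2.79 and -2.31 in Cy5 and of -1.73 and -1.95 in Cy3, and it averaged -2.20 ± 0.46 in microaerobic culture and -1.42 ± 0.21 in aerobic culture (SD, n = 4 each). Ranks 5 and 6, like KH-1711, were deeper in Cy3. Rank 6 split the most, with ratios of -1.22 and -1.19 in Cy5 and of -2.50 and -2.36 in Cy3. Ranks 8 and 9 overlapped between the orientations, with 4 values from -1.89 to -1.43 for rank 8 and from -1.77 to -1.23 for rank 9. Of the 10 leading falls 3 were larger in Cy3, and of the 10 leading rises 9 were, against 52.5% of tested features with 4 values. The 8 leading falls with aerobic values all had a shallower mean there, and of the 9 leading rises with aerobic values 4 had a smaller mean there. Features were ranked by their microaerobic means, so a smaller aerobic mean arises in part from that choice. Among ranks 3 to 10, the difference between conditions was called for 0 of 6 falls and 1 of 7 rises tested, against 1.05% of all features tested.

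**Figure D2:**
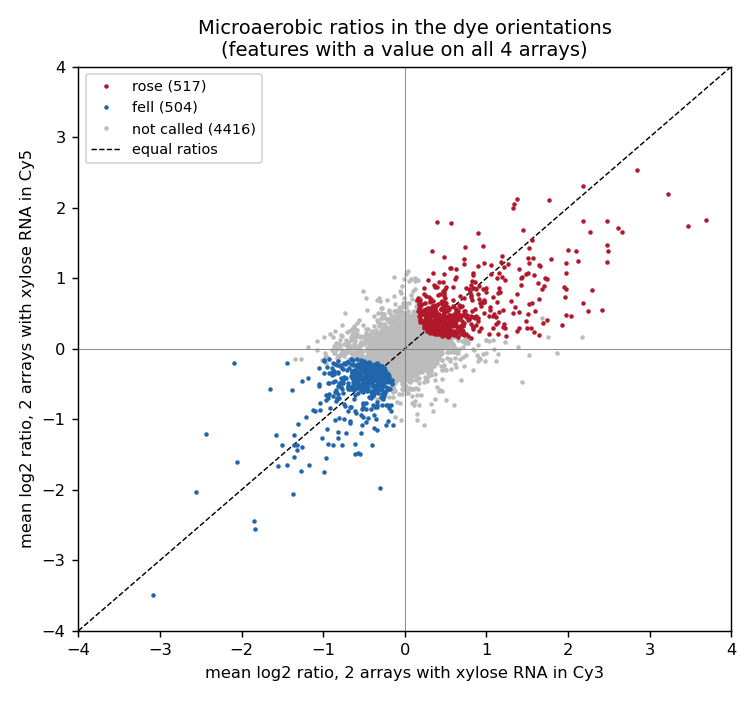
Mean log2 ratio of xylose over glucose RNA of each feature on the 2 microaerobic arrays with the xylose RNA in Cy3 (horizontal axis) and on the 2 with it in Cy5 (vertical axis), for the 5437 features with 4 values. Called features (red, rose; blue, fell) lie in the quadrants where both orientations have 1 sign, and many of the large rises lie below the dashed line of equal ratios.

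Microaerobic arrays that carried the xylose RNA in the same dye resembled each other more than arrays of opposite dye. Across features, the ratios of arrays with the same dye correlated at 0.71 (cy5-1 with cy5-2) and 0.88 (cy3-1 with cy3-2), and those of opposite dye at 0.52 to 0.60, as a description over features that share arrays. The mean ratio of the orientations had an SD of 0.34 across features, and their difference divided by 2 had an SD of 0.17. A term for the dye was called for 528 features (9.36%), 282 with the higher ratio in Cy5 and 246 with the higher ratio in Cy3. Among the features called for xylose, 154 were also called for the dye, 52 higher in Cy5 and 102 higher in Cy3. None of the 1021 called features with 4 values had opposite mean signs in the orientations, against 1757 of the 5437 tested features with 4 values; a call needs agreement between arrays, so this follows in part from the test. Of the 78 features with 4 values that rose by 2-fold or more, 62 had the larger ratio in Cy3, with medians of 1.18 in Cy5 and 1.64 in Cy3. Of the 37 that fell by 2-fold or more, 11 had the larger change in Cy3, with medians of -1.40 in Cy5 and -1.31 in Cy3. Most large rises thus had the larger ratio in Cy3 and most large falls the larger change in Cy5. Of the 5437 tested features with 4 values, 2852 (52.5%) had the larger absolute ratio in Cy3. The part of the dye in any single ratio was not tested.

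Features measured in microaerobic culture but in none of the aerobic arrays stood out in size. There were 13 with at least 3 microaerobic values and no aerobic value, and 8 of them were called, 6 rises and 2 falls, 7 of them at 2-fold or more. The shares, 61.5% called and 53.8% called at 2-fold or more, compare with 18.4% and 2.06% of all tested features. Their median absolute log2 ratio was 1.10, against 0.15 over all tested features. The largest rise among them had ratios of 1.80, 1.52, 2.60 and 2.72 on arrays cy5-1, cy5-2, cy3-1 and cy3-2, and the largest fall had -1.70, -1.50, -2.11 and -2.01. Both were clear of 0 on every array, and for all 8 called features the change was larger where the xylose RNA carried Cy3. The same held for 591 of all 1021 called features with 4 values (57.9%). At 2-fold or more it held for 62 of 78 rises (79.5%) and 11 of 37 falls (29.7%). This set was looked at after the values had been seen. Why their aerobic values are missing is not stated, so no difference between the oxygen conditions can be given for them.

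**Figure D3:**
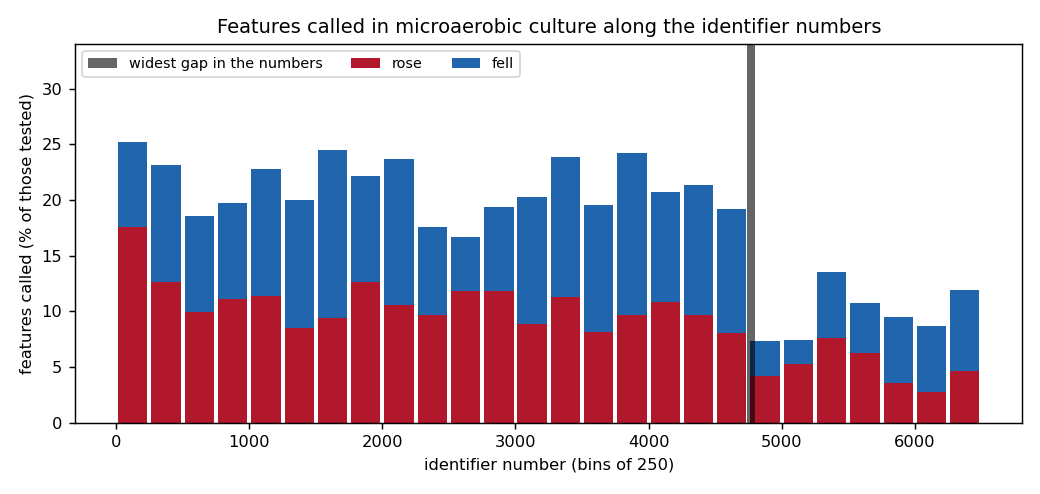
Percentage of tested features called as risen (red) or fallen (blue, stacked above) in microaerobic culture, in bins of 250 identifier numbers, with the widest gap in the numbers marked. The 19 bins before the gap lie between 16.7% and 25.2%, and the 7 bins after it between 7.37% and 13.6%.

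The response was uneven along the identifier numbers of the array design. The numbers run from 1 to 6433 with the widest gap between 4741 and 4801. Of the 1434 tested features after the gap, 142 were called (9.90%), 72 rises and 70 falls, whereas of the 4210 before it 897 were called (21.3%), 455 rises and 442 falls. At 2-fold or more the shares were 0.976% after the gap and 2.42% before it, and all 12 changes of 4-fold or more lay before it. The ratios themselves were smaller after the gap, with an SD of the mean ratio of 0.25 against 0.36 before it, while the median SD between arrays was 0.17 in both. The aerobic mean ratios showed the same order, with an SD of 0.21 after the gap and 0.33 before it. Both shares moved with the setting, but the share after the gap was the lower one under each of the 15 alternatives. No source used here says what the numbers stand for, and the gap was chosen as a boundary after the values had been seen, so no test is given.

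**Figure D4:**
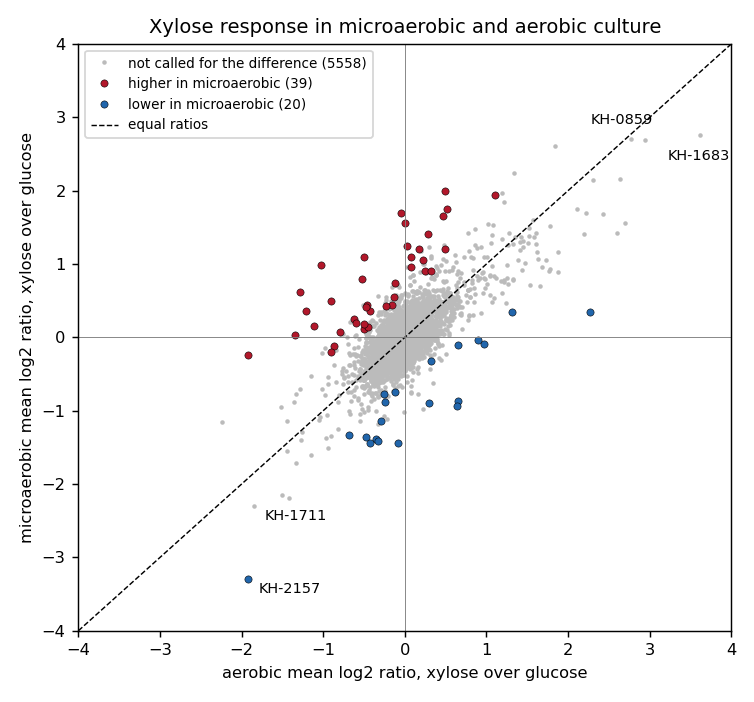
Mean log2 ratio of xylose over glucose RNA in aerobic culture (horizontal axis) and in microaerobic culture (vertical axis) of the 5617 features tested for the difference, 4 arrays per condition. The 39 features in red had a higher ratio in microaerobic culture and the 20 in blue a lower one, and the named features other than KH-2157 were not called for the difference.

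Whether the microaerobic response differed from the aerobic one was tested on the 5617 features that had 3 or more values under both oxygen supplies. The difference, microaerobic minus aerobic, was called for 59 features (1.05%, limma adjusted p under 0.05), 39 of them higher and 20 lower in microaerobic culture. For 25 of the 59 the means of the conditions had 1 sign and the microaerobic mean was the larger in size, 14 positive and 11 negative. Some of their aerobic means lay near 0, with single ratios of both signs. The feature of rank 7 among those higher in microaerobic culture had aerobic ratios of -0.15, -0.19, 0.11 and 0.25, with a mean of 0.005. Another 29 had means of opposite sign in the conditions, 22 of them positive in microaerobic culture and 7 negative there. For 12 of the 29 the microaerobic mean itself was not called as different from 0, so that its sign is uncertain. The aerobic means were not tested against 0, and some of their signs are uncertain too. The feature of rank 3 among those higher in microaerobic culture had aerobic ratios of -0.36, -0.12, 0.16 and 0.15, with a mean of -0.04. The remaining 5 had means of 1 sign, with the aerobic mean the larger in size. Features of opposite sign were not sorted by size. Some had the larger mean in aerobic culture and others in microaerobic culture. The feature of rank 10 among those higher in microaerobic culture averaged 0.04 in microaerobic and -1.35 in aerobic culture. Of the 59, 43 were also called as changed in microaerobic culture. Arrays of the same dye and number deviated together across conditions, and in a fit with a replicate block of dye and number 101 features were called. The count was 169 with a dye term, 30 without microaerobic array cy5-1, 32 without microaerobic array cy5-2, 38 without aerobic array cy5-1 and 36 without aerobic array cy3-2.

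Among the leading microaerobic features, KH-2157 differed between the conditions. Its log2 ratios of -3.44, -3.55, -3.05 and -3.12 in microaerobic culture lay below all of its aerobic ratios, which were -1.84, -1.33, -2.33 and -2.21. The difference was -1.36 ± 0.20 (SE, limma adjusted p = 0.006), but it missed the threshold after quantile normalization, at -0.91 (limma adjusted p = 0.073, the range over 15 alternatives being 0.00027 to 0.073). The rise of rank 9 had ratios of 1.88, 1.74, 2.17 and 2.20 in microaerobic culture, against 0.41, 0.52, 0.76 and 0.27 in aerobic culture. Its difference was 1.51 (limma adjusted p = 0.00027), and the conditions did not overlap. KH-1683 averaged 2.76 ± 1.09 in microaerobic culture and 3.62 ± 0.56 in aerobic culture (SD, n = 4 each), and the difference of -0.86 ± 0.44 (SE) did not pass (limma adjusted p = 0.48). KH-0859 averaged 2.71 ± 0.65 in microaerobic culture and 2.77 ± 0.34 in aerobic culture (SD, n = 4 each), differing by -0.06 ± 0.27 (SE, limma adjusted p = 0.96). KH-1711 averaged -2.29 ± 0.34 in microaerobic culture and -1.85 ± 0.31 in aerobic culture (SD, n = 4 each), differing by -0.44 ± 0.19 (SE, limma adjusted p = 0.37). All 8 ratios of KH-1683, of KH-0859 and of KH-1711 had the sign of their microaerobic mean.

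Some features changed in microaerobic culture and lay near 0 or on the other side of it in aerobic culture. The difference of rank 3 among those higher in microaerobic culture belonged to a feature averaging 1.70 in microaerobic and -0.04 in aerobic culture, a difference of 1.74 (limma adjusted p = 0.0017). Rank 1 of those higher averaged 0.985 in microaerobic and -1.03 in aerobic culture (difference 2.01, limma adjusted p = 0.00022). Among those lower in microaerobic culture, rank 1 had its large response in aerobic culture, averaging 2.275 there and 0.35 in microaerobic culture. Its difference was -1.92 (limma adjusted p = 0.00027), and its microaerobic mean was not called (limma adjusted p = 0.083). The difference of rank 2 among those lower was that of a feature averaging -0.93 in microaerobic and 0.64 in aerobic culture (difference -1.57, limma adjusted p = 0.00045). The difference of rank 3 was that of a feature averaging -0.86 in microaerobic and 0.65 in aerobic culture (difference -1.51, limma adjusted p = 0.00063). In each of these features the microaerobic values lay wholly on 1 side of the aerobic values. The same held for all 59 called features, as follows in large part from the test, and for 391 of the 5617 tested (6.96%), of which 1.05% were called.

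The larger the microaerobic change, the more often the aerobic arrays showed its sign. Of the called features that rose by under 1.5-fold, 136 of 319 (42.6%) had a positive ratio on all 4 aerobic arrays, and this share was 76 of 119 (63.9%) from 1.5-fold to 2-fold, 55 of 67 (82.1%) from 2-fold to 4-fold, and 7 of 7 at 4-fold or more. Of those that fell, 185 of 371 (49.9%), 72 of 100 (72.0%), 26 of 30 (86.7%) and 4 of 4 had a negative ratio on all 4 aerobic arrays, over the same steps. Over all tested features with 4 aerobic values the share with the microaerobic sign on all 4 was 26.3%. The aerobic ratios were the smaller ones in most steps. Features that rose by 2-fold to 4-fold had a median of 1.28 in microaerobic and 1.05 in aerobic culture, and those that fell by 2-fold to 4-fold had a median of -1.19 in microaerobic and -0.68 in aerobic culture. Features were placed in these steps by their microaerobic ratios, so a smaller median in the other condition arises in part from that choice. The difference was called for 20 of the 98 features changed by 2-fold to 4-fold that could be tested for it, and for 1 of the 11 changed by 4-fold or more, against 1.05% of all features tested. The same microaerobic values enter both tests, so these shares are not independent of the steps.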

How the data were processed

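The file used holds 1 log2 ratio per feature and array, made and deposited by the authors. No source used here names the scanner, background correction, normalization or log base, and base 2 is an assumption. Values have 2 decimals. The arrays' medians were -0.02, 0, -0.02 and -0.02 (microaerobic cy5-1, cy5-2, cy3-1, cy3-2) and -0.02, 0, -0.03 and -0.03 (aerobic, same order). RNA was extracted with hot phenol and 30 µg per sample was reverse transcribed, per the labels' protocols. Intensities were not analysed here, so no detection limit can be given, and the number of arrays limits the precision.

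Ratios were used as deposited, without the row that has no identifier. The numerator and direction are unstated; xylose RNA is channel 1 of every array. Mean ratios over the 4 microaerobic arrays were tested against 0 with limma 3.58.1 in R 4.3.3 (lmFit, eBayes) on features with at least 3 values. The difference between conditions was a contrast in 1 fit over 8 arrays, which left out the pairing of same-dye, same-number arrays. P-values of differences come from this fit unless an alternative is named. With the replicate block the difference of KH-2157 had a limma adjusted p of 0.027. Benjamini-Hochberg adjustment ran over all features tested, with calls under 0.05. The fits were tested on simulated data with independent noise. The simulated data held no dye effect and no link between arrays of the same dye and number. Deviations of same-dye, same-number arrays of the 2 conditions correlated at 0.21 to 0.34, above the bound of 0.1, and those of same dye and other number at 0.03 to 0.06, so the pairing comes from the titles and the data.

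Identifiers were named by rule: the 2 largest mean rises and 2 largest mean falls among called features of 1 sign on 4 arrays, with ranks to 10 and differences between conditions given without identifiers. No identifier matched the 5442 genes of RefSeq assembly ASM1920747v1, so the planned gene lists were not used. The comparison and the lists were chosen with earlier results of these data known. Alternatives changed the arrays, dye term, number, scaling, filter and moderation.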

Additional observations from a re-analysis of the deposited data

Results flagged for a closer look

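Of 14 groups of 4 arrays examined for a value far from the others, chance would mark about 1 in 20. Array cy5-2 stood apart among the microaerobic arrays in its number of values, 5493 against 5651 to 5670, and in its median ratio, 0 against -0.02. The other microaerobic medians were equal at the 2 decimals deposited, so a gap of any size would have been marked. Aerobic array cy5-2 likewise had the fewest values of its condition, 5564 against 5646 to 5677, and a median of 0 against -0.02 to -0.03. The difference between the oxygen conditions was called for 59 features by its own test, and for KH-2157 at -1.36 on the log2 scale, microaerobic minus aerobic.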

How the results depend on the processing

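The count of 1039 features called in microaerobic culture was 2249 with number as a random block (consensus correlation -0.50), 1971 with a dye term, 1832 with same-number arrays averaged and 484 to 880 without 1 array. Alternatives chosen after seeing the data gave 382 on the 2 arrays with the xylose RNA in Cy5 alone and 1132 on the 2 with it in Cy3 alone. All 1039 were among the calls with a dye term. That term takes the difference between the dye orientations out of the spread, so this too follows in large part from the construction. With the signs of arrays cy3-1 and cy3-2 turned, limma gave 0 calls, and 249 features had an unadjusted p under 0.05. Turning the signs puts the xylose response into the spread between arrays, so few calls follow in large part from the construction. The separate term for the dye was called for 528 features. The share called before the identifier gap ranged from 8.03% to 43.9% and the share after it from 3.88% to 28.0%. The count of 59 for the difference was 101 with the replicate block (54 of them among the 59), 277 with number as a random block, 169 with a dye term and 30 to 50 without 1 array. The replicate block changed no call among the named features. The difference of KH-0859, which passed under no setting, was 0.021 after quantile normalization and -0.32 to 0.15 without 1 array, and that of KH-2157 was -0.91 after quantile normalization. The causes were not tested. The named features kept their direction and call in microaerobic culture under the 15 alternatives that left the signs as deposited. They were chosen for 1 sign on all 4 microaerobic arrays, so the kept direction follows in large part from that choice.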

Other observations

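The reverse of the features lacking aerobic values also occurred. No microaerobic value was present for 9 features with at least 3 aerobic values, and 3 of these had a mean aerobic ratio of 2-fold or more in either direction. Single aerobic arrays held 5564 to 5677 values. Of these, 55 to 108 were 2-fold or more in favour of xylose and 34 to 43 in favour of glucose. The means of the 9 features ran from -1.62 to 2.60 on the log2 scale, and the feature at 2.60 ± 0.33 (SD, n = 4) was positive on all 4 aerobic arrays. The others at 2-fold or more split by dye. The rise had aerobic ratios of 0.60 and 0.85 in Cy5 and of 2.16 and 2.09 in Cy3. The fall had -0.83 and -0.65 in Cy5 and -2.74 and -2.25 in Cy3.

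Features with adjacent identifier numbers did not resemble each other in their microaerobic response. Over 4768 pairs of adjacent numbers the mean ratios correlated at -0.01 across features, and the differences between the dye orientations at 0.07, both as descriptions of pairs that share arrays.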
